A study of Saccharomyces cerevisiae with 134 samples.

Results

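The genes described here are the 35 budding yeast genes that make ergosterol, regulate that synthesis, esterify sterols or take them up. They are listed by gene ID from what is known of the pathway, a list drawn up with earlier results of these data known. All 35 are among the 6692 features of the RNA tables, and 32 are among the 5355 genes of the tables of trimethylated lysine 36 of histone H3 (H3K36me3), in which ERG7, ERG27 and ARE1 are not listed. By role they are 9 genes of the mevalonate steps, 10 of the steps around squalene, lanosterol and zymosterol, 5 of the late steps, 3 electron or heme partners, 4 regulators, 2 of esterification and 2 of uptake.

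The study used strain BY4741, a haploid a cell, and changed H3K36me3 with light. In 3 courses SET2, the H3K36 methyltransferase gene, was deleted and cells expressed LANS-Set2, a Set2 fusion that blue light sends into the nucleus. One course took set2Δ cells from dark to light and sampled them at 0, 20, 40 and 60 min. Another took set2Δ cells out of light and sampled them at 0, 30, 60 and 90 min of dark, and the third did the same with set2Δ rph1Δ cells, which also lack a histone demethylase gene. RNA was sequenced in both set2Δ courses, with 3 libraries per time except 2 at dark to light 60 min, and H3K36me3 was measured in all 3 courses with 3 libraries per time. RNA was also sequenced in 3 rph1Δ and 3 wild-type (WT) libraries, from cells with native SET2 and no fusion. The courses were grown in synthetic medium without leucine and the rph1Δ and WT cells in rich medium. No course without a switch of light is among the labels, so time after the switch and time in culture cannot be told apart. The protocol text calls the third course rph1Δ and the genotype label set2Δ rph1Δ, and the label is used here.

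RPH1 had 0 to 0.0248 TPM (a length-normalised share of a library's transcripts) in rph1Δ libraries, against 15.6 to 17.4 TPM in WT libraries. SET2, read from the fusion in cells without the native gene, had 78.8 to 172 TPM in the set2Δ courses and 16.5 to 17.5 TPM in the rph1Δ and WT libraries, a level of fusion RNA above that of native SET2. The 6 a cell markers had 43.1 to 6521 TPM over all 29 RNA libraries and the 4 alpha cell markers 0 to 13.4 TPM. Depth was 9295949 to 14334963 estimated reads in the rph1Δ and WT libraries, and reads recovered from TPM gave 16022537 to 29032861 for dark to light and 10551857 to 27652694 for light to dark. The light to dark RNA libraries numbered 1 stood apart, being the lowest of the 3 at every time for 20 of the 35 sterol genes and for 40.0% of all genes. Results of that course are therefore also given without them. Nothing in the labels says that libraries of a group came from separate cultures, so p-values measure the spread between these libraries.

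Ergosterol is the main sterol of the yeast plasma membrane and the counterpart of cholesterol. Acetyl-CoA is built up through mevalonate to farnesyl pyrophosphate, 2 molecules of which are joined to squalene, and squalene is epoxidised, closed to lanosterol, demethylated and rearranged to ergosterol. Several of these steps use oxygen and heme, with electrons from the NCP1 and CYB5 proteins. The zinc cluster factors Upc2 and Ecm22 bind a sterol response element in many ERG promoters, and Upc2 is known to act when sterol is low. Aerobic yeast makes its own sterol, and the transporters Aus1 and Pdr11 import it mainly when oxygen is absent. H3K36me3 is laid down over transcribed gene bodies by Set2.

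The core of that response element, TCGTATA, was searched on both strands of the 500 bases before each start codon of the R64 reference. It was found in 9 of the 35 sterol promoters (25.7%), those of ERG1, ERG2, ERG3, ERG6, ERG8, ERG13, ERG25, ERG28 and CYB5. Of all 5984 promoters of this length 6.99% held it. In the shorter window of 250 bases before to 50 after the start codon it was in 3 of 35 (8.57%), against 4.14% of all. The following stretches are shown for ERG25, ERG2, ERG3 and CYB5, which are among the genes whose RNA rose in the dark, and for ERG1 and ERG6, which had the highest RNA changes of the 35 at 90 min of dark without passing the test. Each is read 5′ to 3′ on the strand of its gene, from the RefSeq genome of build R64, with the core in capitals (TATACGA where the core lies on the other strand).
ERG25, first core, VII:610064-610107: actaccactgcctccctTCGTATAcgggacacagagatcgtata
ERG25, second core, VII:610081-610127: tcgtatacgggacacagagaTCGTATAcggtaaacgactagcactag
ERG2, XIII:667332-667378: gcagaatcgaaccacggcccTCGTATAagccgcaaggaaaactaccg
ERG3, first core, XII:253515-253561: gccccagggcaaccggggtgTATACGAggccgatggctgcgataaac
ERG3, second core, XII:253555-253601: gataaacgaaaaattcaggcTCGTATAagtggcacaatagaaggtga
CYB5, XIV:417551-417597: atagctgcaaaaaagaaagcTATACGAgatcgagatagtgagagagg
ERG1, VII:848779-848825: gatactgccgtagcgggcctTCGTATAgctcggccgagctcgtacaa
ERG6, XIII:253396-253442: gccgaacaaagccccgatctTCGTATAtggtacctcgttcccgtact
The genes ERG2, ERG3 and ERG25 lie on the plus strand, and CYB5, ERG1 and ERG6 on the minus strand. ERG3, ERG25 and ERG13, whose stretches are not shown, hold 2 cores each. Those of ERG25 start 483 and 463 bases before the start codon, both on the strand of the gene. Those of ERG13 start 214 and 101 bases before it. The Rox1 core ATTGTT was in 20 of 35 sterol promoters (57.1%), against 48.9% of all promoters, and the Hap1 site was in 0 of the 35, against 0.351% of all. Neither overlapped a printed core. A match is a description of the letters and not a bound site.

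After the switch from light to dark, the RNA of 13 of the 35 sterol genes rose, 12 of synthesis steps and the electron carrier gene CYB5. Summed over the 35 genes, RNA was 6655 ± 228, 8012 ± 794, 8721 ± 614 and 9984 ± 774 TPM at 0, 30, 60 and 90 min (mean ± SD, n = 3), a ratio of 1.5 at 90 min over 0 min. At 90 min 13 of 35 genes were higher and 0 lower at an adjusted p under 0.05 (limma on log2(TPM + 1), adjusted over the 5884 genes tested), where 1.65% of all genes were higher and 0.306% lower. At 60 min 3 were higher and 0 lower, against 0.272% and 0.034% of all genes, and at 30 min 0 passed, against 0% of all genes. At 30, 60 and 90 min 11, 18 and 22 of the 35 genes had every library above every 0 min library, where 4.16%, 7.8% and 11.6% of all genes did. At those times 0, 0 and 2 had every library below, where 1.46%, 3.6% and 5.4% did. At 30 min limma gave 11 sterol genes and 144 of all 5884 genes an unadjusted p under 0.05, and edgeR on recovered reads also called 0. The median log2 change of the 35 genes was 0.21, 0.30 and 0.46 at 30, 60 and 90 min over 0 min, beside 0.02, 0.04 and 0.07 for all genes tested.

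**Figure D1:**
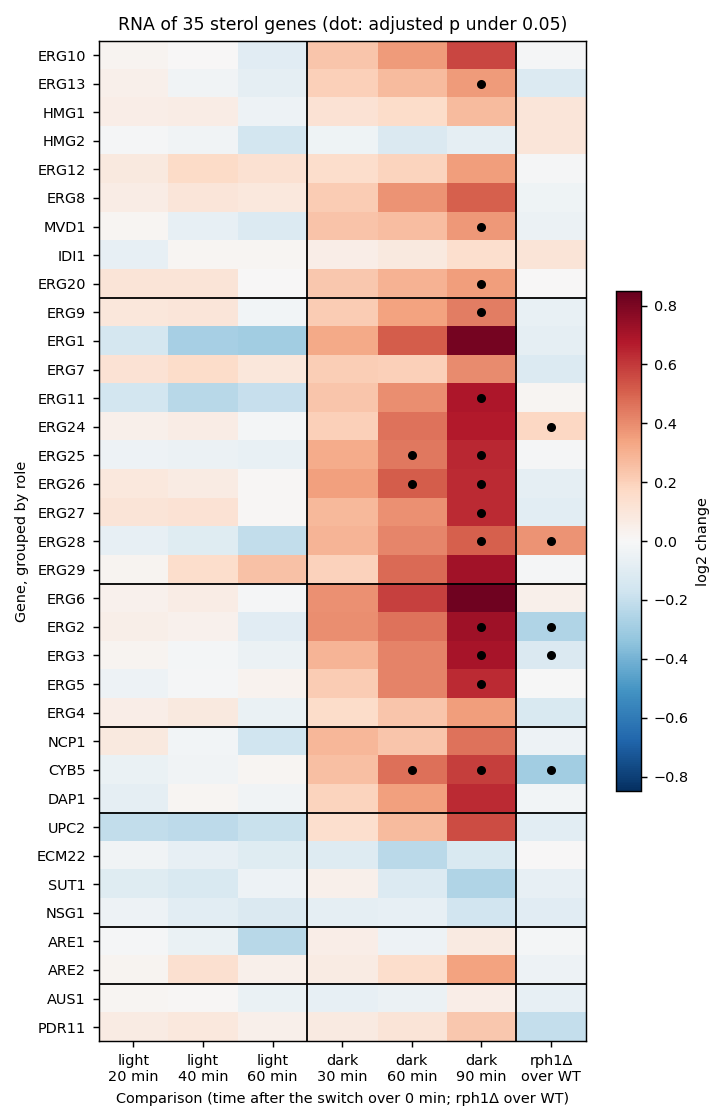
Heat map of log2 change in RNA for the 35 sterol genes (rows, grouped by role with horizontal lines) in 7 comparisons (columns): 20, 40 and 60 min of light over 0 min, 30, 60 and 90 min of dark over 0 min, and rph1Δ over WT. Red is higher, blue is lower and a black dot marks an adjusted p under 0.05, with 13 dots at 90 min of dark and none after the switch to light.

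The steps around squalene, lanosterol and zymosterol held 6 of the 13 genes. ERG25 (YGR060W), the C-4 methyl sterol oxidase gene (R64, VII:610564-611493), was the most abundant sterol RNA in every library. Its level was 1375, 1487 and 1430 TPM at 90 min, against 934, 928 and 885 TPM at 0 min. At 60 min it had 1255, 1247 and 1255 TPM, and at 30 min 1088, 1241 and 1096 TPM. All 9 libraries after the switch were above the 3 libraries at 0 min. Its log2 change was 0.45 ± 0.06 at 60 min (SE, adjusted p = 0.0196, limma) and 0.64 ± 0.06 at 90 min (adjusted p = 0.00066).

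ERG26 (YGL001C), the C-3 sterol dehydrogenase gene of the same C-4 demethylation complex (VII:495453-496502), had 136, 149 and 162 TPM at 90 min, against 100, 99.4 and 87.3 TPM at 0 min, with no overlap. The log2 change was 0.52 ± 0.09 at 60 min (adjusted p = 0.0477, limma) and 0.63 ± 0.09 at 90 min (adjusted p = 0.006). ERG27 and ERG28, the 3-keto reductase and the scaffold of that complex, rose by 0.64 ± 0.13 (adjusted p = 0.0363) and 0.51 ± 0.10 (adjusted p = 0.0283) at 90 min, so that all 4 of these genes passed the test. ERG11, the lanosterol demethylase that azole drugs inhibit, had 800, 899 and 984 TPM at 90 min, against 569, 566 and 527 TPM at 0 min, a log2 change of 0.69 ± 0.12 (adjusted p = 0.0175). ERG9, the squalene synthase gene, changed by 0.44 ± 0.07 (adjusted p = 0.00946).

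The other 4 genes of these steps did not pass. ERG1, the squalene epoxidase gene, had 567, 709 and 805 TPM at 90 min, against 365, 418 and 391 TPM at 0 min, a log2 change of 0.81 ± 0.19 (adjusted p = 0.0654, limma). Its groups did not overlap, and replicate 1 was the lowest of the 3 at each time. ERG7, ERG24 and ERG29 had log2 changes of 0.40 ± 0.23, 0.67 ± 0.21 and 0.71 ± 0.38.

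Of the 5 late genes 3 passed at 90 min. ERG2 (YMR202W), the sterol C-8 isomerase gene (XIII:667537-668205), had 676, 815 and 771 TPM at 90 min, against 413, 478 and 480 TPM at 0 min, a log2 change of 0.72 ± 0.10 (adjusted p = 0.00579, limma). ERG3, the C-5 desaturase gene, and ERG5, the C-22 desaturase gene, changed by 0.70 ± 0.13 (adjusted p = 0.018) and 0.64 ± 0.09 (adjusted p = 0.007). In all 5 late genes the 90 min libraries lay above the 0 min libraries. ERG6, the sterol methyltransferase gene, had a log2 change of 0.82 ± 0.19 (adjusted p = 0.0576), the highest among the 35 genes, and ERG4, the last reductase of the pathway, 0.35 ± 0.08 (adjusted p = 0.0565).

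CYB5 (YNL111C), which encodes the cytochrome b5 that passes electrons to the desaturases (XIV:416940-417302), had 533, 521 and 500 TPM at 90 min, against 363, 360 and 314 TPM at 0 min. The log2 change was 0.47 ± 0.07 at 60 min (adjusted p = 0.0204, limma) and 0.59 ± 0.07 at 90 min (adjusted p = 0.00173). In this gene the libraries numbered 1 were not low, and the groups did not overlap at either time. NCP1, the cytochrome P450 reductase gene, and DAP1, a heme protein gene that helps Erg11, had log2 changes of 0.46 ± 0.15 and 0.64 ± 0.45 at 90 min and did not pass. DAP1 had 65.0, 100 and 124 TPM at 90 min, against 32.2, 70.6 and 92.7 TPM at 0 min, so that the spread within a time was as wide as the difference between the times. For each replicate number the 90 min library was above the 0 min library, though numbers are not said to pair libraries.

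**Figure D2:**
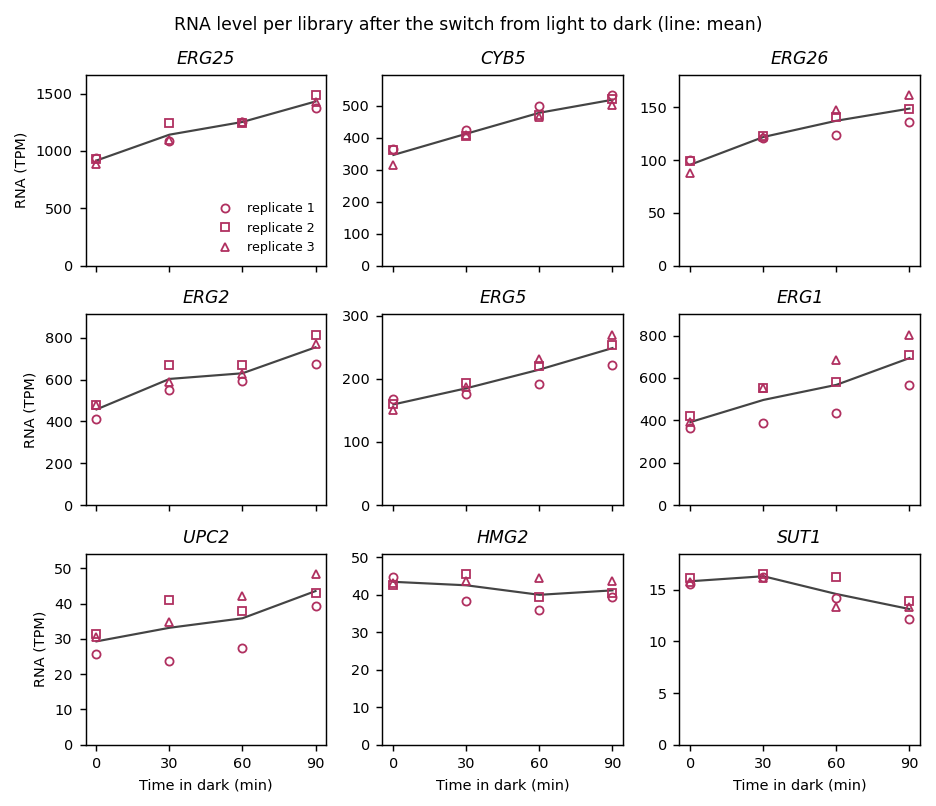
RNA level in TPM (vertical axis, from 0) against time in the dark in min (horizontal axis) for 9 sterol genes, with 1 symbol per library and a line through the means. ERG25, CYB5, ERG26, ERG2 and ERG5 are higher at 90 min in every library than in any at 0 min, ERG1 and UPC2 are higher with a wider spread, and HMG2 and SUT1 are not higher.

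Of the 9 mevalonate genes 3 passed at 90 min. They were ERG13, the HMG-CoA synthase gene (log2 change 0.36 ± 0.07, adjusted p = 0.0275, limma), MVD1, the mevalonate pyrophosphate decarboxylase gene (0.37 ± 0.06, adjusted p = 0.0158), and ERG20, the farnesyl pyrophosphate synthase gene (0.35 ± 0.07, adjusted p = 0.0283). The median log2 change was 0.35 over the 9 mevalonate genes, beside 0.64 over the 10 genes of the next steps and 0.70 over the 5 late genes. In summed TPM the ratio at 90 min over 0 min was 1.31, 1.57 and 1.61 for those 3 roles.

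HMG1 and HMG2, which encode the HMG-CoA reductases that set the pace of the pathway, were not among the genes that passed. HMG1 had 47.2, 55.4 and 61.6 TPM at 90 min, against 41.8, 44.4 and 49.3 TPM at 0 min (log2 change 0.27 ± 0.13). HMG2 had 39.4, 40.3 and 43.7 TPM at 90 min, against 44.7, 42.5 and 43.1 TPM at 0 min (log2 change -0.08 ± 0.09). For both genes the 2 groups overlapped.

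None of the regulators passed at 90 min. UPC2 (YDR213W), the factor of the response element, had 39.2, 43.1 and 48.4 TPM at 90 min, against 25.8, 31.4 and 30.6 TPM at 0 min (log2 change 0.56 ± 0.20, adjusted p = 0.24, limma), with no overlap. ECM22, its paralog, had 8.24, 12.2 and 12 TPM at 90 min, against 9.47, 12.7 and 13.4 TPM at 0 min (log2 change -0.13 ± 0.20). SUT1, a factor that favours sterol uptake, had 12.2, 14 and 13.3 TPM at 90 min, against 15.6, 16.1 and 15.8 TPM at 0 min, with no overlap (log2 change -0.25 ± 0.08, adjusted p = 0.18). NSG1, which encodes a protein that stabilises Hmg2, had a log2 change of -0.16 ± 0.06 (adjusted p = 0.284).

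The genes of esterification and uptake did not pass either. ARE1 and ARE2, the acyltransferase genes that make sterol esters, had log2 changes of 0.08 ± 0.13 and 0.34 ± 0.25 at 90 min. ARE1 shares 298 bases with another annotated gene, YCR050C, and whether counting used strand is unknown here, so its reads are uncertain. AUS1 and PDR11, the sterol importer genes, had 0.06 ± 0.12 and 0.23 ± 0.13. PDR11 was the least abundant sterol RNA in every library, with 2.75, 3.10 and 3.34 TPM at 90 min, against 2.16, 2.59 and 2.66 TPM at 0 min, with no overlap. AUS1 had 8.65, 10.2 and 10.1 TPM at 90 min, against 9.26, 9.29 and 9.08 TPM at 0 min, and overlapped.

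Leaving out single libraries changed the count at 90 min. It was 6 without replicate 2 and 7 without replicate 3 of 0 min, and 6 without replicate 2 and 5 without replicate 3 of 90 min. ERG2, ERG5, ERG25, ERG26 and CYB5 passed with each of the 6 libraries left out in turn. A fit without the 4 libraries numbered 1 was chosen after seeing the data. In it 7.06% of all genes passed at 90 min and 1.7% at 60 min. Of the sterol genes 22 passed at 90 min, the same 13 among them, and 9 at 60 min. UPC2 was then among them (log2 change 0.54, adjusted p = 0.0244, limma). At 60 min the count was 0 without replicate 2 and 1 without replicate 3 of 0 min. Of all genes 0.119% and 0.187% passed in those fits. The count was 0 without either replicate 2 or replicate 3 of 60 min, where 0.085% of all genes passed in each. With replicate number added to the limma model as a block, 27 sterol genes passed at 90 min, 26 higher and 1 lower. Of all genes 13.3% then passed.

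Of the 13 genes that rose, 6 held a TCGTATA core (ERG2, ERG3, ERG13, ERG25, ERG28 and CYB5), and of the other 22 genes 3 did (ERG1, ERG6 and ERG8). Those 3 had log2 changes of 0.81, 0.82 and 0.51 at 90 min. This count is a description, since the genes and the motif were chosen with the pathway in view.

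Genes next to the pathway were read from lists, which were also chosen with earlier results of these data known. At 90 min 1.65% of all genes were higher and 0.306% lower, the shares to set beside the counts below. Of 37 tested among 39 genes of ester hydrolysis, transport between membranes, Hmg2 turnover and isoprenoid branches, 1 was higher and 0 lower at 90 min, with a median of 0.07. The 1 was ATF2, a sterol acetyltransferase gene (log2 change 0.45). Of 7 tested cell wall mannoprotein genes of the DAN and TIR families, which are known as anaerobic genes and in part as Upc2 targets, 5 were higher at 90 min with a median of 1.32, led by DAN1 (3.01), TIR1 (1.32) and PAU23 (1.33). At 60 min DAN1 alone of that list passed (2.33), where 0.272% of all genes were higher and 0.034% lower.

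The authors' deposited table for 90 min of dark lists 19 of the 35 genes (54.3%) among 313 genes in all (4.68% of the 6692 features), and that for 60 min lists 12 (34.3%) among 117 (1.75%). Its log2 values are all negative for them (ERG2 -0.60, ERG25 -0.50, CYB5 -0.38, UPC2 -0.34 at 90 min). For all 1664 genes listed over the authors' 6 deposited tables the sign is opposite to that of the TPM, so these values are read here as 0 min over the later time, which makes these genes higher in the dark. ERG2 is the 1 sterol gene among the 14 in the authors' deposited table for 30 min (-0.35).

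After the switch from dark to light no sterol gene passed the main test. Summed RNA was 7937 ± 337, 7910 ± 1096 and 7754 ± 488 TPM at 0, 20 and 40 min (mean ± SD, n = 3) and 7491 ± 158 TPM at 60 min (n = 2). None of the 35 genes passed at 20, 40 or 60 min (limma on log2(TPM + 1) over 5907 genes), where 0.0169%, 3.54% and 0.0508% of all genes were higher and 0%, 0.254% and 0% lower. Their median log2 change was 0.02, 0.01 and -0.04, beside 0.04, 0.10 and 0.08 for all genes. Limma gave 0, 0 and 1 of the sterol genes an unadjusted p under 0.05, against 532, 1545 and 1159 of all genes, and edgeR on recovered reads called 0, 1 and 0. With each library centred on its median, the genes called at 40 min over all genes split into 127 higher and 194 lower, against 209 higher and 15 lower as deposited, and still none was a sterol gene. With replicate number added as a block, limma called 0 at each time and edgeR on recovered reads 1, 6 and 12. Of these 1, 6 and 11 were lower. They are 2.86%, 17.1% and 34.3% of the sterol genes, beside 5.66%, 22.3% and 21.2% of all genes.

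**Figure D3:**
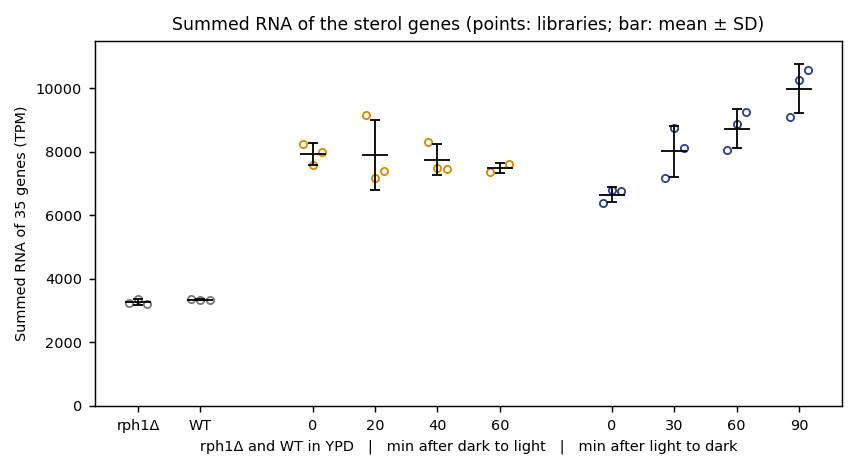
Summed RNA of the 35 sterol genes in TPM (vertical axis, from 0) in each library (open points), with the mean and SD (black), for rph1Δ and WT cells in rich medium and for both courses by min after the switch. The light to dark course runs from 6655 to 9984 TPM, the dark to light course stays between 7491 and 7937 TPM, and rph1Δ and WT sit near 3264 and 3348 TPM.

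At 60 min 8 of the 35 genes (ERG1, ERG11, ERG25, ERG28, HMG2, MVD1, NSG1 and UPC2) had both libraries below all 3 at 0 min, where 6.72% of all genes did, and 1 had both above, where 26.6% did. ERG1 had 629, 559 and 608 TPM at 0 min, 700, 461 and 483 TPM at 20 min, 555, 468 and 459 TPM at 40 min, and 484 and 491 TPM at 60 min. The 40 and 60 min libraries all lay below those of 0 min, and the log2 change at 40 min was -0.28 ± 0.15 (adjusted p = 0.244, limma). ERG11 had a log2 change of -0.23 ± 0.12 at 40 min (adjusted p = 0.231). UPC2 had 28.7 and 28.8 TPM at 60 min, against 34.3, 31.0 and 33.2 TPM at 0 min, with -0.22 ± 0.12 at 40 min (adjusted p = 0.257). The authors' deposited table for 40 min lists 4 sterol genes, ERG1 (0.27), ERG11 (0.26), UPC2 (0.25) and NSG1 (0.18), with the sign of 0 min over 40 min, hence lower in light. These are 11.4% of the 35 genes, and the same table lists 687 genes, 10.3% of all features, a share near that of the sterol genes. Of the sterol genes, the authors' deposited table for 60 min lists NSG1 alone (0.19) among 445 genes, and that for 20 min lists 0 among 88.

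The other genes followed in every course did not pass either. HMG1 had 42.6 and 47.1 TPM at 60 min of light, against 47.2, 44.8 and 46.5 TPM at 0 min, and overlapped. HMG2 had 32.9 and 33.4 TPM at 60 min, against 40.7, 34.6 and 35.9 TPM at 0 min, with no overlap and a log2 change of -0.15 ± 0.13. ECM22 had 10.0 and 13.2 TPM at 60 min, against 11.3, 12.9 and 13.3 TPM at 0 min, and SUT1 14.5 and 17.1 TPM, against 15.5, 17.0 and 16.4 TPM. For ARE1 and ARE2 the values were 23.7 and 34.5 TPM and 41.0 and 42.7 TPM at 60 min, against means of 33.9 and 40.7 TPM at 0 min. AUS1 averaged 12.1 TPM at 60 min and 12.6 TPM at 0 min, and PDR11 2.96 TPM and 2.85 TPM.

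Cells in constant light and in constant dark are the 0 min libraries of the 2 courses. They come from separate tables and are set side by side with no test. In 14 of the 35 genes every light library was below every dark library, where 14.4% of all genes were, and in 1 gene (HMG2), where 11.8% of all genes were, every light library was above. The other 20 genes overlapped. ERG1 averaged 391 ± 26.5 TPM in constant light and 599 ± 35.9 TPM in constant dark (SD, n = 3 each), and ERG2 457 ± 37.8 TPM and 605 ± 14.1 TPM. HMG2 averaged 43.4 ± 1.15 TPM in constant light and 37.1 ± 3.21 TPM in constant dark.

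In rph1Δ cells 5 of the 35 sterol genes (14.3%) differed from WT, a share near the 12.3% of all genes. Summed RNA was 3264 ± 88.9 TPM in rph1Δ and 3348 ± 8.69 TPM in WT (SD, n = 3 each). By edgeR's quasi-likelihood test on counts 2 of the 35 genes were higher and 3 lower in rph1Δ, where 9.46% of all genes were higher and 2.83% lower, with a median log2 change of -0.04 for the 35 genes and -0.01 for all 6088 tested. In 5 genes every rph1Δ library was above every WT library and in 3 below, where 16.7% and 9.17% of all genes were. The sums of both genotypes were below those of every course library, and strain, fusion, medium and table, which all differed, cannot be told apart.

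ERG28 had 80.5, 77.2 and 81.9 TPM in rph1Δ, against 57.8, 58.7 and 65.4 TPM in WT, a log2 change of 0.38 ± 0.08 (adjusted p = 0.00262, edgeR). ERG24, the C-14 reductase gene, had 48.7, 49.5 and 47.5 TPM in rph1Δ, against 43.5, 42.2 and 42.0 TPM in WT (log2 change 0.18 ± 0.04, adjusted p = 0.0069). CYB5 had 111, 109 and 116 TPM in rph1Δ, against 141, 135 and 135 TPM in WT (-0.30 ± 0.07, adjusted p = 0.00716). ERG2 had 224, 236 and 233 TPM in rph1Δ, against 273, 275 and 273 TPM in WT (-0.26 ± 0.04, adjusted p = 0.000307). In each of these 4 genes the groups did not overlap, and each passed with any 1 library left out. ERG3, the fifth, had 221, 240 and 221 TPM in rph1Δ, against 249, 248 and 240 TPM in WT (-0.12 ± 0.04, adjusted p = 0.0371), and passed in only 2 of the 6 fits with a library left out. The count was 8 without WT replicate 1 and 3 with limma on log2(TPM + 1).

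The genes followed throughout did not pass in rph1Δ. Their log2 changes were 0.10 ± 0.05 for HMG1, 0.10 ± 0.04 for HMG2, -0.09 ± 0.06 for UPC2, 0.00 ± 0.05 for ECM22 and -0.07 ± 0.09 for SUT1. Those of ARE1, ARE2, AUS1 and PDR11 were -0.01 ± 0.05, -0.04 ± 0.05, -0.07 ± 0.05 and -0.20 ± 0.08. Of the 37 other sterol genes tested 9 were higher and 3 lower, where 9.46% and 2.83% of all genes were. Among them COQ1 (0.34), OSH6 (0.36) and HRD1 (0.36) had the smallest p.

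H3K36me3 over the sterol genes rose in light and fell in dark, as over nearly all genes. In the dark to light course the signal rose at all 31 genes tested (limma slope of the log2 signal over 4 times), as it did at 99.9% of all genes, with a median slope of 2.18 log2 per hour beside 1.87 for all genes. ERG28, below the filter on low signal, was not tested. The median signal of the 32 listed genes was 0.181 at 60 min and 0.029 at 0 min, beside 0.0983 and 0.0224 for all genes. At 60 min 24 of the 32 were above the median gene, and the highest were ERG11, ERG6, ERG3 and ERG5 at 0.594, 0.505, 0.476 and 0.410, between the 97.5th and the 99.8th percentile of genes. The lowest were ERG28 at 0.0375 and AUS1 at 0.0486.

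Relative slopes, taken after the median of each library was subtracted to remove shifts of whole libraries, set the sterol genes apart from each other. Their 0 is the slope of the library medians and not the median slope of all genes. In dark to light 13 of 31 were steeper and 2 shallower (adjusted p under 0.05, limma), where 14% of all genes were steeper and 37% shallower. The median relative slope was 0.22 log2 per hour for the sterol genes and -0.10 for all genes. With libraries centred on the median deviation instead, the split was 21 steeper and 1 shallower among sterol genes and 1221 and 1252 among all genes, against 676 and 1784 with the median. Mevalonate genes held 7 of the 13, with all 9 of them above 0 and a median of 0.38.

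**Figure D4:**
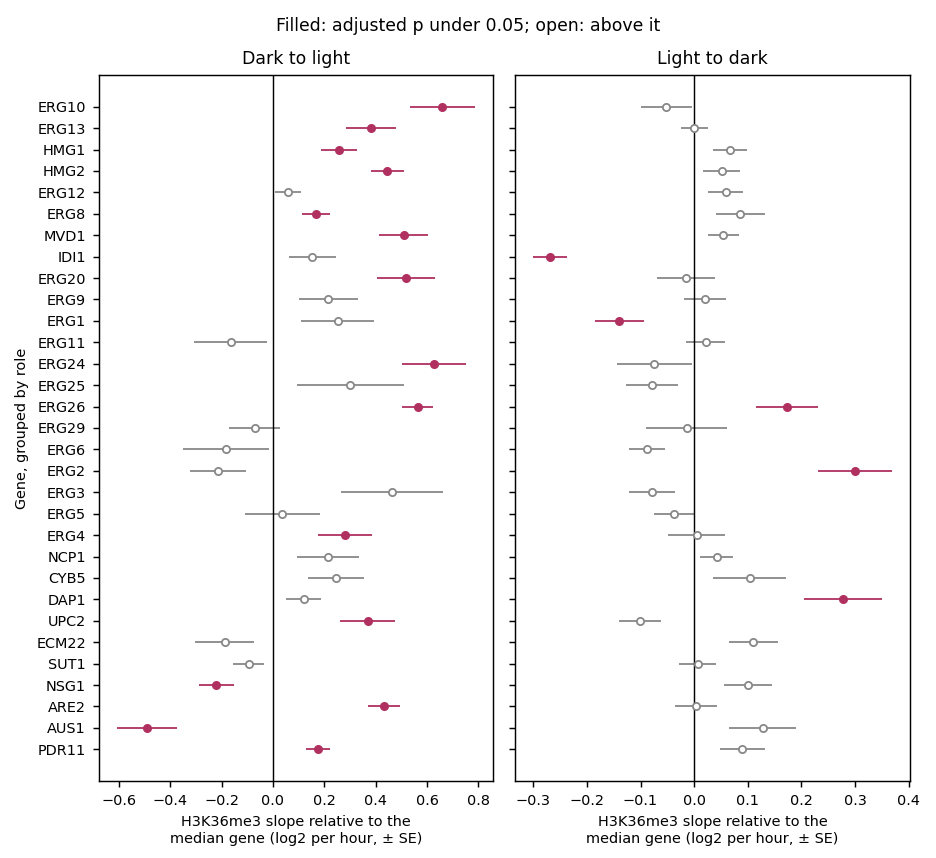
H3K36me3 slope of each tested sterol gene after subtraction of the library median (horizontal axis, log2 per hour with SE) in the dark to light and light to dark courses of set2Δ cells. Genes are listed by role. The value 0 is the slope of the library medians, and the median over all genes was -0.10 on the left and 0.04 on the right. Filled points passed at an adjusted p under 0.05. On the left ERG10 at 0.66 is the steepest and AUS1 at -0.49 the shallowest, and on the right the range is narrower, with IDI1 at -0.27.

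ERG10, the acetoacetyl-CoA thiolase gene that opens the pathway, had 0.195, 0.229 and 0.288 signal units at 60 min of light, against 0.0272, 0.0359 and 0.0372 at 0 min, a ratio of means of 7.09. Its relative slope was 0.66 ± 0.13 (adjusted p = 0.000983, limma). ERG26 had 0.115, 0.149 and 0.168 at 60 min, against 0.0189, 0.0231 and 0.0199 at 0 min (ratio 6.98, relative slope 0.56 ± 0.06, adjusted p = 3.87e-05). HMG2 had 0.129, 0.165 and 0.166 at 60 min, against 0.0227, 0.0285 and 0.0235 at 0 min (relative slope 0.44 ± 0.06, adjusted p = 0.00016). In all 3 genes the lowest library at 60 min was several times above the highest at 0 min.

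Relative slopes of the others that passed were 0.63 ± 0.12 for ERG24, 0.52 ± 0.11 for ERG20, 0.51 ± 0.10 for MVD1 and 0.43 ± 0.06 for ARE2. They were 0.38 ± 0.10 for ERG13, 0.37 ± 0.11 for UPC2, 0.28 ± 0.11 for ERG4, 0.26 ± 0.07 for HMG1, 0.18 ± 0.05 for PDR11 and 0.17 ± 0.05 for ERG8. AUS1 was the shallowest, with 0.0459, 0.0504 and 0.0496 at 60 min, against 0.0147, 0.0146 and 0.0129 at 0 min (ratio 3.45, relative slope -0.49 ± 0.12, adjusted p = 0.00346, limma), and NSG1 followed (-0.22 ± 0.07). ECM22 and SUT1 had -0.19 ± 0.11 and -0.09 ± 0.06 and did not pass. The genes of high RNA did not share a direction. ERG2, ERG6 and ERG11 had relative slopes of -0.21 ± 0.11, -0.18 ± 0.17 and -0.16 ± 0.14 and did not pass, while ERG10 was the steepest gene. Ratios of signal at 60 min over 0 min were 3.93, 3.64 and 3.67 for ERG2, ERG6 and ERG11. They were 5.88, 5.35 and 4.98 for ERG3, ERG25 and ERG1, beside 4.38 for the median of all genes. With a larger pseudocount (1 times the table median in place of 0.1 times) 27 passed, as did 77.5% of all genes, and PDR11 changed sign to -0.07.

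**Figure D5:**
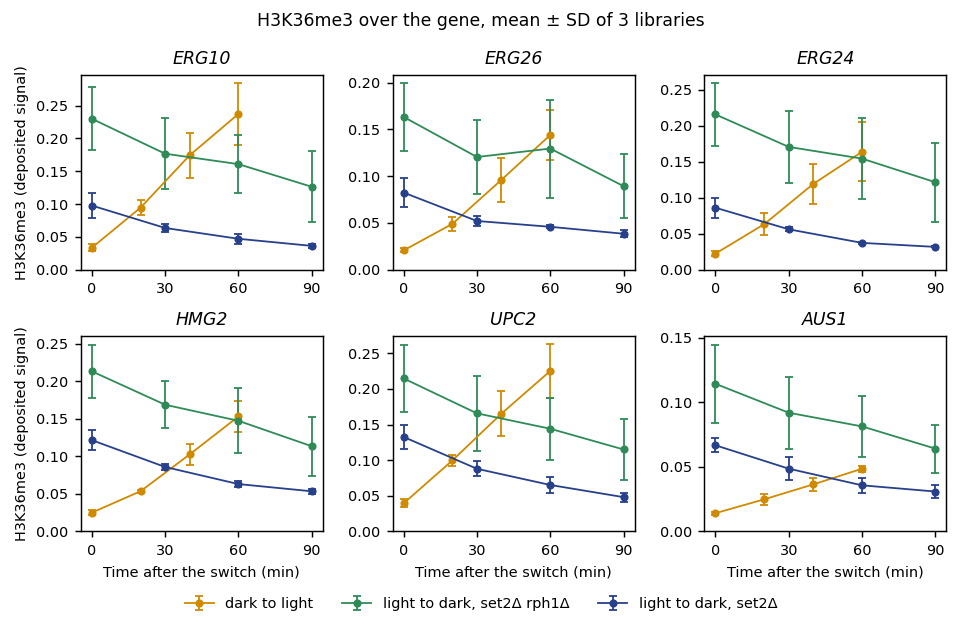
Deposited H3K36me3 signal over 6 sterol genes (vertical axes, from 0) against min after the switch, as mean and SD of 3 libraries, for dark to light in set2Δ, light to dark in set2Δ rph1Δ and light to dark in set2Δ cells. The mean signal is higher at 60 min of light than at 0 min, and lower at 90 min of dark than at 0 min, in all 6 genes. The 3 courses come from tables deposited separately, so heights are not compared between them.

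After the switch from light to dark the signal fell at all 31 genes in set2Δ cells, as at 99.6% of all genes, with a median slope of -0.77 log2 per hour beside -0.75. The median signal of the sterol genes was 0.0508 at 90 min and 0.125 at 0 min, beside 0.0439 and 0.105 for all genes. Relative to the library median 3 of 31 declined more slowly and 2 faster, where 14% and 5.65% of all genes did. With centring on the median deviation the split was 2 slower and 4 faster among sterol genes and 266 and 471 among all genes, against 672 and 272. IDI1, the isopentenyl pyrophosphate isomerase gene, had 0.061, 0.0653 and 0.0625 at 90 min, against 0.181, 0.232 and 0.2 at 0 min, and the steepest relative slope (-0.27 ± 0.03, adjusted p = 0.000146, limma). It alone passed with each replicate left out. ERG2 had 0.0261, 0.0285 and 0.0236 at 90 min, against 0.0452, 0.0604 and 0.0391 at 0 min (relative slope 0.30 ± 0.07, adjusted p = 0.0114). DAP1 (0.28 ± 0.07), ERG26 (0.17 ± 0.06) and ERG1 (-0.14 ± 0.05) were the others, and the count was 1, 2 and 1 without replicate 1, 2 or 3.

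None of the genes followed throughout passed the test of the relative slope in the dark. UPC2 had 0.0424, 0.0546 and 0.0469 at 90 min, against 0.12, 0.152 and 0.126 at 0 min, and HMG2 0.0502, 0.0539 and 0.0561 at 90 min, against 0.113, 0.136 and 0.115. Slopes were -0.89 ± 0.09 for UPC2, -0.68 ± 0.08 for ECM22, -0.78 ± 0.08 for SUT1, -0.72 ± 0.07 for HMG1 and -0.74 ± 0.07 for HMG2. They were -0.66 ± 0.09 for AUS1, -0.70 ± 0.09 for PDR11 and -0.79 ± 0.08 for ARE2.

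In set2Δ rph1Δ cells the signal fell at all 31 genes too, as at 97.4% of all genes, with a median slope of -0.54 log2 per hour beside -0.55 for all genes. That count depended on replicate 2, without which 0 sterol genes and 3 of all 4815 genes passed. The median slopes were then -0.51 for the sterol genes and -0.52 for all genes. Without replicate 1 the count was 26 sterol genes, and 87.0% of all genes passed. No sterol gene differed from the library median in relative slope, where 0.187% of all genes were slower and 1.2% faster. For that slope limma gave 3 sterol genes and 639 of all 4815 genes an unadjusted p under 0.05. Between the genotypes the slope difference (set2Δ rph1Δ minus set2Δ) had a median of 0.22 over the 31 genes, beside 0.20 for all genes. None of the 31 passed the test of the difference, nor did any of the 4712 genes tested (0%), and limma gave 2 sterol genes and 119 of all genes an unadjusted p under 0.05. It ran from 0.11 to 0.41, the highest being IDI1 (0.41 ± 0.17). After centring none of the 31 passed, where 0.0637% of all genes were higher and 0.0849% lower.

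Across genes, H3K36me3 signal and RNA level were correlated, given as a description with no test. Spearman's rho between signal and TPM at 60 min of light was 0.589 over the 32 sterol genes and 0.428 over 5351 genes, and in constant light it was 0.383 over the 32 and 0.375 over 5348 genes. Genes of a library share its depth and its scaling.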

How the data were processed

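Tools named by the submitters' processing notes, without roles, include Salmon 0.8.1, STAR 2.5.2b and 2.5.4b, deepTools 2.5.4 and DESeq2 1.14.1, on build sacCer3. The deposited rph1Δ and WT files hold estimated counts and TPM per gene, and the deposited RNA course tables hold TPM. The deposited H3K36me3 tables hold 1 signal per gene and library, whose scaling is not given in the sources used here. The authors' deposited lists of genes changed between times hold log2 fold changes, standard errors, p-values and a test statistic, here called a score, which was not used. Of the 134 samples, 29 RNA and 36 H3K36me3 libraries were analysed, and the rest, with the authors' model tables, were not used here.

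The 35 genes and every other list were chosen with earlier results of these data known. Estimated counts were rounded and tested with edgeR 4.0.16 (filterByExpr, TMM, quasi-likelihood). RNA courses were tested with limma 3.58.1, time as a factor and a variance trend, on log2(TPM + 1), keeping genes that averaged 1 TPM or more. This scale understates changes of genes near 1 TPM. Reads were recovered from TPM by borrowing effective lengths from the rph1Δ and WT files, and 100% of values checked were whole within 0.05. For H3K36me3, limma fitted slopes per hour to log2 of the signal plus 0.1 times the table median, leaving out genes under the 10th percentile. Relative slopes follow subtraction of the library median. P-values were adjusted by the Benjamini-Hochberg method across the genes tested in each comparison, two-sided, with a threshold of 0.05. UPC2, ECM22, SUT1, HMG1, HMG2, ARE1, ARE2, AUS1 and PDR11 are named in every course, and up to 12 called genes per comparison by smallest p. Further genes are named to complete a count. All 35 IDs matched R64, and 99.9% of 6007 shared genes had the coding length of the files. The fits were tested on simulated data. Alternatives were another normalization, filter, pseudocount or tool, a replicate block and single libraries left out.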

Additional observations from a re-analysis of the deposited data

How the results depend on the processing

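Counts are of sterol genes that passed. In rph1Δ over WT the 5 became 3 with limma on log2(TPM + 1), 8.57% against 5.49% of all genes, and ranged over 4 to 8 with a library left out. For dark to light RNA edgeR on recovered reads gave 1 at 40 min (202 higher and 280 lower of all genes) in place of 0. For light to dark it gave 5 at 60 min in place of 3 (40 higher and 2 lower of all genes). Without the 4 libraries numbered 1, chosen after seeing the data, 9 passed at 60 min (94 higher and 6 lower of all genes) and 22 at 90 min (361 and 54). With single libraries left out the count ranged over 0 to 3 at 60 min and 5 to 14 at 90 min. The share of all genes ranged over 0.085% to 0.323% and 0.646% to 2.94%. With a pseudocount of 1 times the table median, the relative H3K36me3 slopes that passed were 27 for dark to light, 22 for light to dark and 8 for set2Δ rph1Δ, and 1 for the difference between genotypes. These are 87.1%, 71%, 25.8% and 3.23% of the 31 sterol genes, beside 77.5%, 72.3%, 46.4% and 1.83% of all genes. At that pseudocount PDR11 turned to -0.067 for dark to light and HMG1 to -0.054 for light to dark. With 0.01 times, 3 passed for light to dark (9.68% against 15.1% of all genes), and centring on the median deviation gave 1 for the difference between genotypes (3.23% against 0.573%). Leaving out a replicate gave 1 to 2 for relative light to dark slopes, and 0 to 31 for slopes in set2Δ rph1Δ cells. The cause of these moves was not tested. Fits with libraries left out also had fewer samples.

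Replicate numbers are not said to pair libraries, and not all same-numbered pairs deviated together. Correlations over 0.1 were found in 0 of 3 pairs of rph1Δ and WT, 11 of 15 and 14 of 18 RNA pairs (dark to light, light to dark) and 15, 10 and 13 of 18 H3K36me3 pairs (dark to light, light to dark, set2Δ rph1Δ). In that order, median correlations of same-numbered RNA pairs were -0.018, 0.164 and 0.289, beside 0.012, -0.076 and -0.163 for other pairs. For H3K36me3 they were 0.177, 0.138 and 0.178, beside -0.106, -0.051 and -0.089. Of the RNA libraries 1 of 6, 8 of 11 and 10 of 12 correlated best with their own number. Of the H3K36me3 libraries 12, 8 and 10 of 12 did. With the replicate block in limma 1, 14 and 27 passed at 30, 60 and 90 min of dark. All were higher but 1 lower at 90 min, beside 4, 135 and 640 of all genes higher and 2, 20 and 142 lower. With the block in edgeR on recovered reads 4, 19 and 31 passed at those times (4, 18 and 28 higher and 0, 1 and 3 lower), beside 22, 196 and 620 of all genes higher and 7, 60 and 392 lower. At 20, 40 and 60 min of light it gave 1, 6 and 12 (0, 0 and 1 higher and 1, 6 and 11 lower), which are 2.86%, 17.1% and 34.3% of the sterol genes beside 5.66%, 22.3% and 21.2% of all genes. The block gave 6 for rph1Δ over WT (17.1% against 11.5% of all genes), 18 for the slope difference between genotypes (58.1% against 43.6%) and 1 for its relative form (3.23% against 0.7%). Single genes were also compared, those followed throughout and, except for plain H3K36me3 slopes, those that passed in the main fit. Under alternatives 1044 RNA and 541 H3K36me3 values kept their side of the threshold, 68 and 35 no longer passed, and 17 and 14 newly passed. A change of sign was counted only where either fit passed, and there were 0 and 2. PDR11, ECM22 and AUS1 had the lowest mean RNA among the sterol genes, and whether few reads limited their precision was not tested.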
